A study of Rattus norvegicus with 15 samples.

Results

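The 4 libraries of multifidus muscle RNA from rats given plasma-derived mitochondria together with vitamin D after spinal surgery (the pMT/VitD group) were compared with 2 libraries from uninjured rats (the control group). These 6 libraries were taken by their group labels out of 15 in the series, and 2 libraries from rats with surgery alone served to show where the injury had moved each gene. The animals were wild type male Sprague Dawley rats of 12 weeks and 340 to 370 g. Surgery was a hemilaminectomy with ligation of a spinal nerve on the left side. The pMT/VitD rats then received, at each of 2 sites of the left paraspinal muscles, 25 μg of mitochondria isolated from human plasma (pMT) and 150 μg of cholecalciferol (VitD), or 50 μg and 300 μg in all. The days of injection and of tissue collection are not given for this group in the sources used here. The pMT/VitD and control groups therefore differ by the operation, the injections and both agents at the same time, and these cannot be told apart in this comparison. Nothing in the labels says whether libraries of a group came from separate animals, so that p-values measure the spread between these libraries.

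The multifidus is a deep back muscle that stabilises the spine and is cut and partly denervated in spinal surgery. Injured and denervated muscle fibres are known to switch on genes of the embryonic sarcomere and of the immature acetylcholine receptor, while fibroblasts and macrophages in the tissue make matrix and complement. Vitamin D acts through its nuclear receptor Vdr, which pairs with retinoid X receptors, and transplanted mitochondria are meant to support energy supply. The question put to the data was which genes of the treated muscle differed from uninjured muscle, and whether any had moved past it on the side away from the injury.

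The files gave 64352200 and 68593000 reads for control and 52342100 to 62249500 for pMT/VitD (median 54087000), counted over genes. Levels below are CPM, the counts scaled to a common library size after TMM normalisation, and differences are on the log2 scale. Fibre transcripts dominated every library, with 29300 to 36500 CPM of the creatine kinase Ckm and 55000 to 71100 CPM of the actin Acta1 in these 6. The pMT/VitD libraries did not form 1 cluster. Over abundant genes, the spread of log2 ratios (median absolute deviation) to the control libraries was 0.335 to 0.346 for replicates 1 and 2, 0.213 to 0.248 for replicate 3 and 0.154 to 0.190 for replicate 4, against 0.143 between the 2 control libraries. Replicate 4 lay 0.335 to 0.441 from the other pMT/VitD libraries and was thus nearer to control than to its own group, against what its label would give. Replicate 3 lay 0.231 to 0.335 from the other pMT/VitD libraries, so that it was no nearer to its own group than to control either. In replicates 1 to 3 shorter genes had higher counts (rank correlation of the deviation with gene length -0.673, -0.608 and -0.413), whereas it was 0.415 in replicate 4 and 0.146 and 0.251 in the control libraries. Replicate 4 of the pMT group, which received the mitochondria alone, also stood apart from its own group. Its correlation with gene length was -0.614 against 0.112, 0.666 and 0.746 in pMT replicates 1 to 3, its TMM factor was 0.857 against 1.038 to 1.09, and it came as near as 0.157 to a pMT/VitD library. In gene length correlation and TMM factor it was closer to pMT/VitD replicates 1 to 3 than to the other pMT libraries. The mean levels of early genes and of complex I genes, given further on, also set both libraries apart from their labelled groups. A further measure placed both with their labelled groups. Over the 215 genes higher after surgery (described below), the median log2 ratio to control was 0.198 in pMT replicate 4. It was 0.192, 0.230 and 0.215 in pMT replicates 1 to 3. In pMT/VitD replicate 4 it was 0.0563, against 0.0623, -0.0170 and 0.0307 in pMT/VitD replicates 1 to 3. Whether the labels of the 2 libraries labelled replicate 4 were exchanged was not tested, the labels were kept, and an exchange would change the pMT/VitD values given here. For this reason both were left out in an alternative. Results that rest on replicate 4 or on gene length are therefore given with and without them.

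Between pMT/VitD and control, 0 of 17201 genes tested were called at an adjusted p under 0.05 in edgeR's quasi-likelihood test (0% of all genes), and the smallest adjusted p was 0.906. At an unadjusted p under 0.05 there were 496 genes (2.88%), 297 of them higher (1.73%) and 199 lower (1.16%). A fitted difference over 2-fold in either direction was found for 749 genes (4.35%). DESeq2 called 0 genes as well, with 697 at an unadjusted p under 0.05. An absence of calls does not show equality, and the intervals give the reach of the data: the median 95% interval extended 0.463 to each side, and for 12043 of the 17179 genes with an interval (70.1%) it excluded any difference as large as 2-fold. All 4 pMT/VitD libraries lay above both control libraries for 727 genes (4.23%) and below them for 868 (5.05%). Other rules gave calls. A fold change of at least 2 with an unadjusted p under 0.05 in edgeR's exactTest on these 6 libraries took in 152 of 16061 genes (0.946%), 109 higher and 43 lower, and 4 genes (0.0249%) with an adjusted p. When libraries were weighted by their quality in limma voom, which gave replicate 4 a weight of 0.215 and replicate 3 of 0.428 against 1.69 and 1.05 for replicates 1 and 2, there were 862 higher (5.01%) and 960 lower (5.58%) genes at an adjusted p under 0.05. The median difference over all genes was -0.00915, and -0.0678 without TMM factors.

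The injury itself was measured in the same fit. Surgery alone differed from control in 266 genes (1.55% of those tested), 215 higher (1.25%) and 51 lower (0.296%), which became 969 and 28 without TMM factors and 717 and 284 in DESeq2. The count was 8 when either control library was left out and 12 or 20 without a surgery library, fits in which the lone library was assumed to vary like those of the other groups. Of the 266 genes, 254 were called between pMT/VitD and surgery and were not called between pMT/VitD and control, and 265 had no overlap between the 4 pMT/VitD and the 2 surgery libraries (36.8% of all genes tested). Across all genes, 1279 (7.44%) were called between pMT/VitD and surgery, 413 higher (2.4%) and 866 lower (5.03%), against 98 and 3152 without TMM factors, where the median of all genes was -0.325, and 1081 and 1168 in DESeq2. Because the 266 were chosen with the same surgery and control libraries that enter these counts, the counts are a description. In the 215 genes higher after surgery the median log2 ratio to the control mean was 1.11 in both surgery libraries and 0.0623, -0.0170, 0.0307 and 0.0563 in pMT/VitD replicates 1 to 4. In the 51 lower genes it was -0.868 and -0.850 after surgery and -0.142, -0.107, -0.0119 and -0.0352 in pMT/VitD. Every pMT/VitD library, including the nearest and the farthest from control over abundant genes, thus had medians close to the control level. For 217 of the 266 genes the 95% interval of pMT/VitD against control stayed within 2-fold. The count of 254 became 8 and 6 without control replicate 1 or 2, 11 and 18 without surgery replicate 1 or 2, and 94 with a replicate block. With pMT/VitD replicate 4 and pMT replicate 4 both left out, 601 genes were called between surgery and control and between pMT/VitD and surgery and not between pMT/VitD and control.

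**Figure D1:**
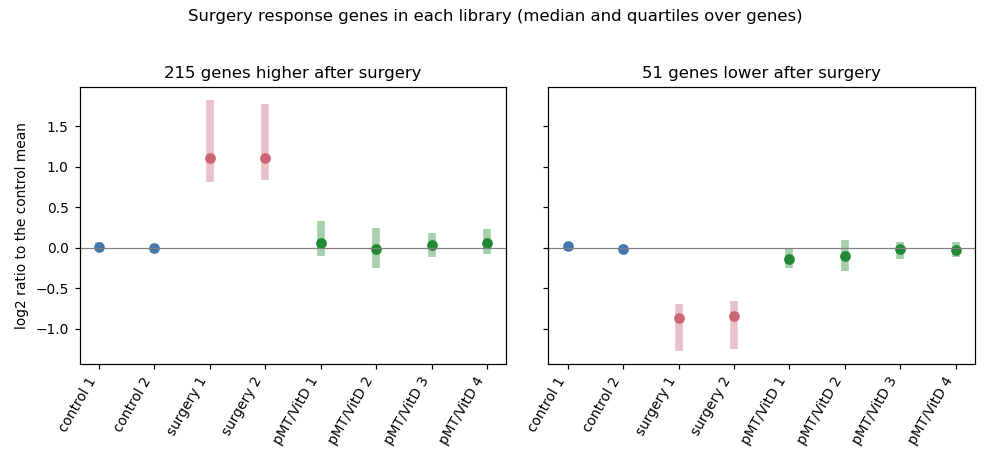
Log2 ratio to the control mean in each library (y axis) over the 215 genes higher and the 51 genes lower after surgery. Points are medians and bars span the quartiles over genes. The surgery medians sit at 1.11 and near -0.86, while the 4 pMT/VitD medians sit between -0.142 and 0.0623.

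The developmental sarcomere genes, which build the contractile apparatus of embryonic and regenerating fibres, had 3 of 15 tested members called higher after surgery (against 1.25% of all genes) and 0 called between pMT/VitD and control. Ankrd1 encodes a titin-binding protein induced by stretch and denervation. Its level was 10.3 and 10.4 CPM in the control libraries, 244 and 253 after surgery, and 7.93, 8.47, 7.07 and 14.3 in pMT/VitD replicates 1 to 4. The pMT/VitD values straddled control (log2 difference -0.13, 95% interval -1.39 to 1.13) and lay far from surgery. Actc1, the cardiac actin of embryonic skeletal muscle, was measured at 19 and 17.3 CPM in control, 186 and 178 after surgery, and 28.7, 31.8, 16.8 and 21.1 in pMT/VitD. Tnnt2, a cardiac troponin of immature fibres, had 2.30 and 2.23 CPM in control, 19.8 and 19.2 after surgery, and 5.42, 6.17, 2.19 and 2.34 in pMT/VitD. For both genes replicates 1 and 2 were above control and replicates 3 and 4 lay beside it, with log2 differences of 0.44 (-0.52 to 1.40) and 0.83 (-0.35 to 2.01). Mustn1, which is active in regenerating muscle and tendon, went from 69.4 and 65.9 CPM in control to 414 and 404 after surgery and was at 70.8, 79.0, 65.8 and 71.5 in pMT/VitD.

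Promoter sequences from RefSeq (GRCr8) are shown for Actc1 and Tnnt2, which stood between control and surgery in replicates 1 and 2, and for Fosb and Thbs1, which are described further on and were lower than control in replicates 1 to 3. Of the 266 surgery genes, 177 had an entry by symbol. Each line gives 200 bases that end at the base before the annotated start, 5′ to 3′ on the gene's strand. Capitals mark CATTCC (the core of the MCAT element of muscle genes) and TATAAA on either strand. CATTCC occurred in 12.1% and TATAAA in 12.9% of all 33469 promoters of that table over 250 bases before the start. The CArG box (1.5% of promoters), TGACGTCA (1.59%) and TGANTCA (6.34%) were searched over the same 250 bases and had no match in these 4, which says only that these letters are not in the window.
Actc1 (chr3:121271828-121272027, minus strand): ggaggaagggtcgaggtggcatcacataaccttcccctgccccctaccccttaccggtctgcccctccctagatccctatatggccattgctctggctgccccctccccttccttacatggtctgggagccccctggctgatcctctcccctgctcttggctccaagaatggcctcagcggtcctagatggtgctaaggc
Tnnt2 (chr13:49818923-49819122, plus strand): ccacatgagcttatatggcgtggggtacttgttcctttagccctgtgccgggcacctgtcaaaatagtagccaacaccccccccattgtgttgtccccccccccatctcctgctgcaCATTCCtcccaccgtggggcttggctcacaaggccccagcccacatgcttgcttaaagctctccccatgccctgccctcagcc
Fosb (chr1:88089185-88089384, minus strand): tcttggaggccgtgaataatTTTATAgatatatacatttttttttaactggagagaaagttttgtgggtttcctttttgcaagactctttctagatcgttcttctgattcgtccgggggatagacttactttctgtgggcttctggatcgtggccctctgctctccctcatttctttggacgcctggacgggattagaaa
Thbs1 (chr3:125510050-125510249, plus strand): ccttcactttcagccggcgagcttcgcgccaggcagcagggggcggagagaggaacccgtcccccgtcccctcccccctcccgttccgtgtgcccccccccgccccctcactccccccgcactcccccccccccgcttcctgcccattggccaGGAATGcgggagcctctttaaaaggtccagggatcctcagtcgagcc
Tnnt2 and Thbs1 had 1 CATTCC each, Fosb had 1 TATAAA, and Actc1 had none of the letters searched.

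Of the 22 neuromuscular junction and denervation genes, 4 rose after surgery (1.25% of all genes) and none was called in pMT/VitD against control (median log2 difference 0.0207, against -0.00915 over all genes tested). Chrna1, the acetylcholine receptor subunit that spreads over denervated fibres, stood at 4.86 and 5.23 CPM in control, 13.8 and 14.5 after surgery, and 6.94, 7.17, 4.99 and 5.12 in pMT/VitD. Myog, the transcription factor that links denervation to these genes, had 20.5 and 18.3 CPM in control, 48.7 and 46.6 after surgery, and 27.6, 22.3, 21.1 and 18.3 in pMT/VitD. Its log2 difference from control was 0.20 (-0.17 to 0.57), with only replicates 1, 2 and 3 above both control libraries. Chrng, the fetal receptor subunit, kept more of its rise. It was at 0.142 and 0.100 CPM in control, 2.05 and 1.34 after surgery, and 0.540, 0.445, 0.323 and 0.195 in pMT/VitD, so that all 4 treated libraries were above both controls (log2 difference 1.61, 0.07 to 3.15, unadjusted p 0.0417).

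Cdkn1a, the cell cycle inhibitor controlled by p53, was at 9.23 and 8.62 CPM in control, 55.6 and 54.1 after surgery, and 13.3, 14.0, 10.5 and 7.96 in pMT/VitD. Klk1, a kallikrein protease that releases kinins, had 0.820 and 0.900 CPM in control, 9.61 and 9.72 after surgery, and 1.30, 1.13, 0.817 and 0.662 in pMT/VitD. For both genes the treated libraries overlapped control. H19, the imprinted noncoding RNA of growing muscle, went from 4970 and 4620 CPM to 10100 and 9870 after surgery and stood at 6260, 6450, 5740 and 4460 in pMT/VitD.

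**Figure D2:**
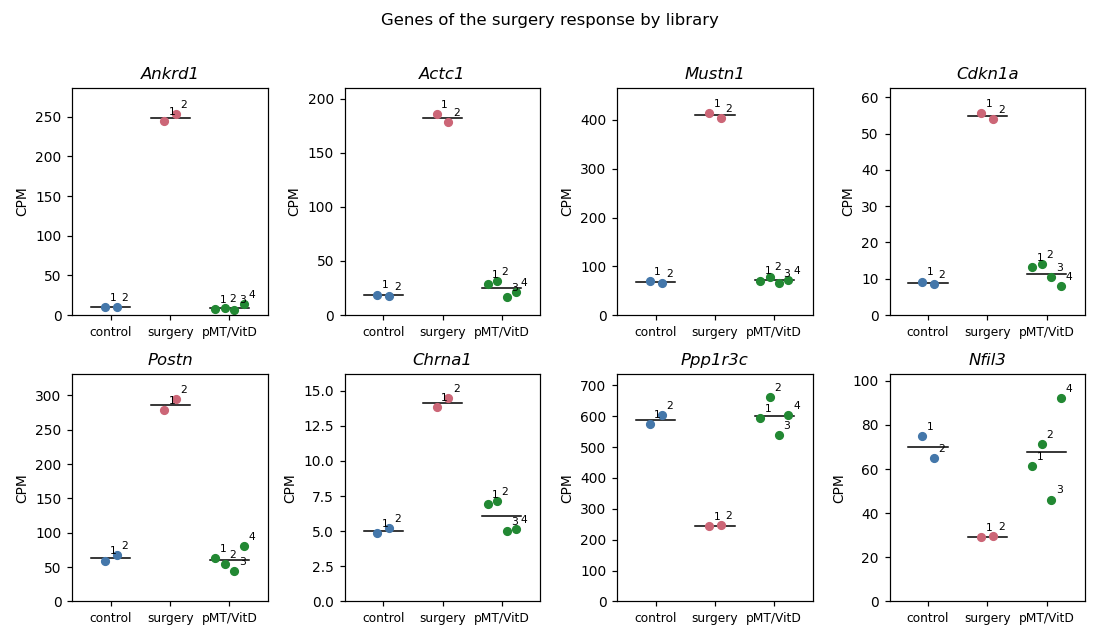
CPM (y axis, from 0) of 8 surgery response genes in each control, surgery and pMT/VitD library. Points carry the replicate number and lines are group means. For Ankrd1 and Mustn1 all 4 pMT/VitD points lie with the control points, whereas for Actc1 and Chrna1 replicates 1 and 2 lie above them.

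Matrix genes showed the largest number of calls between pMT/VitD and surgery of any list, but not the largest share. Among macrophage markers 13 of 14 were lower in pMT/VitD, and among MHC class II genes 8 of 11. Of the 45 matrix remodelling genes, 23 were lower in pMT/VitD (5.03% of all genes) and 0 higher. After surgery 7 of the 45 were higher than in control (1.25% of all genes). Against control, 0 were called and the median log2 difference was -0.0708. Periostin (Postn), a matricellular protein of healing tissue, had 59.6 and 67.3 CPM in control, 278 and 294 after surgery, and 62.7, 53.9, 44.3 and 80.7 in pMT/VitD. Fibronectin (Fn1) had 156 and 152 CPM in control, 318 and 322 after surgery, and 137, 115, 152 and 167 in pMT/VitD. Loxl1, an enzyme that crosslinks elastin, was at 20.8 and 17.6 CPM, 56.6 and 58.4 CPM, and 17.4, 11.8, 22.5 and 20.1 CPM in the same order. In these 3 genes pMT/VitD replicate 2 was lower than both control libraries and the 4 treated libraries spread to either side of control. The fibrillar collagens Col1a1 and Col3a1 were not called after surgery (log2 differences 1.32 and 0.99, adjusted p 0.0714 and 0.0851) but were lower in pMT/VitD than in surgery (adjusted p 0.00971 and 0.0106). Col1a1 had 458 and 388 CPM in control and 358, 309, 351 and 524 in pMT/VitD. Of the 40 collagen genes tested, 27 had a value below control and 13 above it in pMT/VitD (median -0.149), a median that was -0.00924 with the trend on gene length removed.

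Complement and macrophage genes followed. After surgery 7 of 32 complement genes and 6 of 14 macrophage markers were higher than in control (1.25% of all genes), and 15 complement genes and 13 macrophage markers were lower in pMT/VitD than after surgery (5.03% of all genes), with 1 complement gene higher (2.4%). None was called against control. C4a, a component of the classical pathway, had 8.66 and 8.53 CPM in control, 38.9 and 38.0 after surgery, and 5.86, 6.02, 7.89 and 7.67 in pMT/VitD. All 4 treated libraries were below both controls (log2 difference -0.33, -0.70 to 0.05, unadjusted p 0.0846). C7, which belongs to the membrane attack complex, also lay below control in every treated library, with 44.4 and 46.9 CPM in control and 15.9, 15.6, 40.3 and 44.1 in pMT/VitD. Its 2 lowest values are those of replicates 1 and 2, and its log2 difference was -0.65 with an unadjusted p of 0.120. Gpnmb, a lysosomal protein of activated macrophages, was at 7.21 and 7.13 CPM in control, 25.5 and 26.4 after surgery, and 9.55, 9.92, 5.68 and 7.36 in pMT/VitD. The summed level of the macrophage markers was 238 CPM in both control libraries, 445 and 449 after surgery, and 212, 201, 207 and 254 in pMT/VitD. In bulk tissue, fewer macrophages and less RNA per macrophage cannot be told apart. Of the 11 MHC class II genes, which present antigen to T cells, Cd74, RT1-Da and Ciita rose after surgery. Cd74 had 244 and 233 CPM in control, 436 and 429 after surgery, and 231, 200, 215 and 269 in pMT/VitD, on either side of control.

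Genes lower after surgery included the clock genes Arntl, Nfil3 and Npas2, while Dbp, which is driven by Arntl, was higher. Arntl had 28.2 CPM in both control libraries, 13.0 and 12.1 after surgery, and 22.1, 23.8, 22.6 and 27.2 in pMT/VitD. All 4 treated libraries lay below control (log2 difference -0.24, -0.54 to 0.06, unadjusted p 0.114) and above surgery. Dbp was at 19.3 and 18.0 CPM in control, 54.4 and 52.3 after surgery, and 22.5, 19.3, 27.1 and 15.5 in pMT/VitD. Nfil3 had 75 and 65.1 CPM in control, 29.3 and 29.5 after surgery, and 61.3, 71.4, 46.2 and 92.3 in pMT/VitD. The hour of tissue collection is not given in the sources used here, and its part in the values of clock genes was not tested. Ppp1r3c, which targets a phosphatase to glycogen, was at 573 and 605 CPM in control, 244 and 246 after surgery, and 595, 661, 539 and 605 in pMT/VitD (log2 difference 0.03, -0.44 to 0.49). The pseudogene LOC691532 had the largest drop of any response gene named here. It had 29.6 and 29.9 CPM in control and 0.194 and 0.177 after surgery, and was at 53.9, 60.2, 33.8 and 27.6 in pMT/VitD. Reads of a pseudogene can come from its parent gene, so that this gene's counts are uncertain.

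Of the 266 surgery genes, 15 had an unadjusted p under 0.05 between pMT/VitD and control (5.64%, against 2.88% of all genes tested), and 33 kept between 25% and 50% of their surgery shift and 7 kept more. Most of the 15 were scarce transcripts. The 7 genes that kept more were all among the 15. Their log2 differences from control in pMT/VitD (surgery in brackets) were 6.52 (7.11) for Tnfrsf18, 6.36 (7.61) for Cd247 and 6.04 (7.18) for LOC103691921. They were 5.88 (6.65) for Oip5, 5.01 (9.45) for Clec2dl1, 2.365 (4.202) for Eomes and 1.335 (2.407) for Nkg7. Cd247 had 0 CPM in both control libraries, 0.401 and 0.355 after surgery, and 0.0648, 0.167, 0.301 and 0.0973 in pMT/VitD. With control at 0, the size of its log2 difference and the share kept depend on how the fit handles 0. In CPM every treated library of Cd247 lay below both surgery libraries. Matn4, a matrix protein of the matrilin family, had 0.694 and 0.517 CPM in control, 2.74 and 2.77 after surgery, and 1.30, 1.24, 1.14 and 0.993 in pMT/VitD. Its 4 treated libraries lay between the other groups without overlap and were lower than surgery (adjusted p 0.00349), with a log2 difference from control of 0.94 (0.45 to 1.44, unadjusted p 0.00111). Ppp1r14c, a phosphatase inhibitor, was also intermediate, with 3.83 and 3.88 CPM in control, 10.6 and 9.79 after surgery, and 5.75, 6.88, 4.39 and 4.24 in pMT/VitD. The growth factor Bmp4 had 7.45 and 6.83 CPM in control, 11.6 and 11.3 after surgery, and 9.66, 10.5, 8.06 and 7.42 in pMT/VitD, where replicate 4 overlapped control. Nkg7, a granule protein of T and natural killer cells, had 0.158 and 0.200 CPM in control, 0.943 and 0.968 after surgery, and 0.281, 0.352, 0.538 and 0.642 in pMT/VitD. Rmrp, a noncoding RNA of the ribosome pathway, was at 6.17 and 3.12 CPM in control, 0.517 and 0.218 after surgery, and 1.69, 0.779, 1.20 and 1.75 in pMT/VitD. The treated values of Rmrp were below control in all 4 libraries, and it was among the 4 genes of the exactTest rule with an adjusted p.

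No gene met the rule for having moved past control, which asked for calls of pMT/VitD against control and against surgery in the same direction with control in between. The same rule gave 0 genes in DESeq2, 2 without both replicates 4, and 701 in voom with quality weights. Without any test, the libraries stood in the order surgery, control, pMT/VitD without overlap for 122 genes rising (0.709%) and 191 falling (1.11%). An unadjusted p under 0.05 against control was reached by 46 of these, 14 rising and 32 falling, and by 2.88% of all genes tested. The ordered genes were chosen for lying beyond both control libraries, which makes a low p likely, so that the 46 are a description. The genes described here were picked from the ordered genes by size after their values were seen. Lbx1, a homeobox factor of limb muscle precursors, was at 2.31 and 2.61 CPM after surgery, 2.82 and 2.72 in control, and 15.5, 18.7, 3.85 and 3.31 in pMT/VitD. Its height rested on replicates 1 and 2. Endog, a nuclease of mitochondria, had 23.6 and 23.4 CPM after surgery, 27.2 and 24.2 in control, and 33.5, 38.2, 33.6 and 28.0 in pMT/VitD (log2 difference 0.38, 0.11 to 0.65). Among those that fell, Nfam1, an activating receptor of immune cells, had 5.07 and 4.75 CPM after surgery, 3.36 and 2.83 in control, and a narrow 1.94, 1.89, 2.02 and 2.02 in pMT/VitD. Its log2 difference from control was -0.65 (-0.98 to -0.32, unadjusted p 0.000822) and from surgery -1.32 (adjusted p 0.000484). Ms4a6a, a membrane protein of macrophages, had 5.13 and 5.44 CPM after surgery, 3.42 and 3.37 in control, and 1.94, 2.11, 2.34 and 3.04 in pMT/VitD. Of the 266 surgery genes, 105 had a fitted value on the far side of control, and 12 stood in this order without overlap. As the 266 were chosen with the same control libraries, these counts are a description. Tlr7, a receptor for RNA in immune cells, was the only 1 of the 15 with an unadjusted p under 0.05 that lay there. It had 6.10 and 5.52 CPM after surgery, 3.25 and 3 in control, and 2.12, 1.87, 2.56 and 2.61 in pMT/VitD. For genes picked from this order, the lack of overlap between the 3 groups was fixed by the choice. Neither Nfam1 nor Tlr7 passed the adjusted threshold against control.

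The next genes were also chosen after their values were seen, and all but Spred1 had every treated library on the same side of control. Imp3, a factor of ribosome assembly, had 16.2 and 15.6 CPM in control and 22.6, 25.1, 20.0 and 20.7 in pMT/VitD (log2 difference 0.47, 0.24 to 0.70, unadjusted p 0.000622). Pcdhgb7, a protocadherin, had 2.82 and 3.28 CPM in control and 1.38, 1.63, 1.96 and 2.22 in pMT/VitD (log2 difference -0.76, -1.19 to -0.34). Nkd2, an inhibitor of Wnt signalling, had 1.45 and 1.07 CPM in control and 3.33, 3.21, 2.37 and 1.71 in pMT/VitD. Smug1, a DNA repair glycosylase called by the exactTest rule with an adjusted p, had 1.04 and 0.550 CPM in control and 3.22, 3.87, 3.61 and 2.94 in pMT/VitD, but also 3.08 and 0.682 CPM in the 2 surgery libraries. Spred1, an inhibitor of Ras signalling, was the only gene called when control replicate 2 was left out, and it rested on control replicate 1, which had 1.18 CPM against 14.9 in control replicate 2 and 9.01, 10.6, 8.73 and 14.9 in pMT/VitD.

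The 28 early genes that activity and stress induce within minutes separated pMT/VitD replicate 4 from the rest. The mean log2 CPM of the list relative to control was -0.73, -0.75 and -0.80 in replicates 1 to 3 and 0.32 in replicate 4, and -0.14 and -0.08 after surgery. In the pMT group it was -0.04, -0.03 and -0.23 in replicates 1 to 3 and -0.71 in replicate 4. Fos, a subunit of the AP-1 factor, had 21.9 and 20.3 CPM in control, 17.7 and 17.0 after surgery, and 3.13, 4.19, 2.49 and 38.7 in pMT/VitD. Its relative Fosb had 2.54 and 2.13 CPM in control, 0.969 and 0.846 after surgery, and 0.173, 0.148, 0.172 and 3.44 in pMT/VitD. In both genes the first 3 replicates lay below every control and surgery library and replicate 4 above them. Thbs1, a matrix protein that activates TGF-beta, had 7.19 and 6.97 CPM in control and 2.01, 2.30, 2.43 and 11.2 in pMT/VitD. With all libraries none of these was called (log2 differences -0.80, -1.24 and -0.65).

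Leaving out pMT/VitD replicate 4 changed the count of calls against control from 0 to 2, among them Fosb. Leaving out replicate 4 of both the pMT/VitD and the pMT group gave 11 calls, all lower (0.064% of 17182 genes), and 3400 genes at an unadjusted p under 0.05 (19.8%). Among the 11 genes were Fos (log2 difference -2.66), Fosb (-3.80), Egr1 (-1.83), Thbs1 (-1.63), Trib1 (-1.77), Phlda1 (-1.26), Steap2 (-1.45), Lrrc25 (-1.15), Smpd3 (-0.893) and Adprhl1 (-0.688). In 10 of the 11 replicate 4 lay above the control mean. Steap2, a metal reductase, was the exception, with 2.87 and 3.02 CPM in control and 0.735, 1.15, 1.29 and 2.69 in pMT/VitD. Hspa1a, an inducible heat shock protein, and Atf3, a stress factor, had the same order without being called, with 12.3, 10.5, 11.9 and 56.5 CPM of Hspa1a and 9.21, 12.0, 10.1 and 63.4 CPM of Atf3 in pMT/VitD. Control had 36.4 and 29.3 CPM of Hspa1a and 39.2 and 39.7 CPM of Atf3. Among the 28 early genes, 12 were lower and 3 higher at an unadjusted p under 0.05 without both replicates 4, against 9.21% and 10.6% of all genes. The handling of the tissue before extraction is not stated per library, and its part in these values was not tested.

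**Figure D3:**
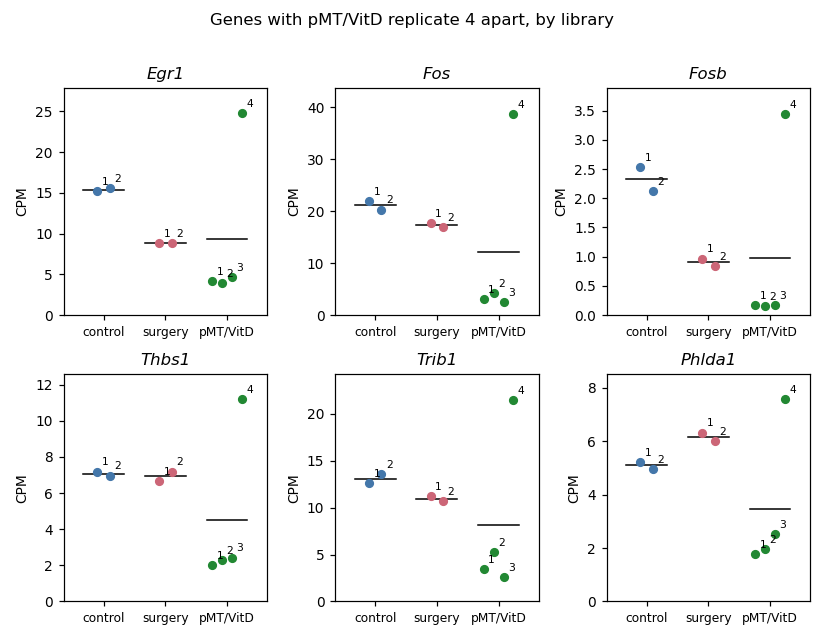
CPM (y axis, from 0) of 6 genes called lower than control when the replicates 4 of pMT/VitD and pMT were left out, in each control, surgery and pMT/VitD library. Points carry the replicate number and lines are group means. pMT/VitD replicates 1 to 3 lie below, and replicate 4 above, all control points.

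Nuclear genes of the respiratory chain had fitted values above control without a call. All 37 complex I genes and 40 of 41 genes of complexes II to V had a positive log2 difference (medians 0.339 and 0.287), and none had an unadjusted p under 0.05. The cytosolic ribosome (47 of 47 positive, median 0.271) and the proteasome (31 of 31, median 0.175) had the same direction, with 1 ribosomal gene and 0 proteasome genes at an unadjusted p under 0.05. Ndufb8, a subunit of complex I, had 329 and 306 CPM in control and 444, 475, 378 and 316 in pMT/VitD. Cox4i1, a subunit of cytochrome oxidase, had 807 and 736 CPM in control and 1160, 1140, 978 and 730 in pMT/VitD, and Rps18 of the small ribosomal subunit had 624 and 612 against 991, 978, 681 and 642. For these 3 genes replicates 1 to 3 were above control and replicate 4 was near it. The list means repeat this order, with complex I at 0.50, 0.54, 0.26 and -0.17 and the ribosome at 0.45, 0.45, 0.23 and -0.13 relative to control in replicates 1 to 4. In pMT replicate 4 complex I was at 0.45, against 0.00, -0.21 and -0.38 in pMT replicates 1 to 3.

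These lists hold short genes, and short genes had higher counts in replicates 1 to 3. With each library's trend on gene length removed, the medians were 0.0872 for complex I, 0.0348 for complexes II to V, 0.0221 for the ribosome and 0.0590 for the proteasome, against 0.0123 over all genes. Without both replicates 4 and with the trend kept, they were 0.476, 0.420, 0.412 and 0.283, and 33, 30, 34 and 17 genes reached an unadjusted p under 0.05, each of them higher (10.6% of all genes). Voom with quality weights called 24 complex I, 20 complex II to V, 20 ribosomal and 9 proteasome genes higher (5.01% of all genes) and 0 lower. The 13 protein genes of the mitochondrial genome had a median of 0.00468. It was -0.185 with the length trend removed and 0.151 without both replicates 4. These 13 genes took 14.5% and 15.6% of counts in control, 10.7% and 11.2% after surgery, and 17.7%, 13.5%, 16.5% and 11.5% in pMT/VitD, which overlapped control. The injected mitochondria were human, and the counts are of rat genes.

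**Figure D4:**
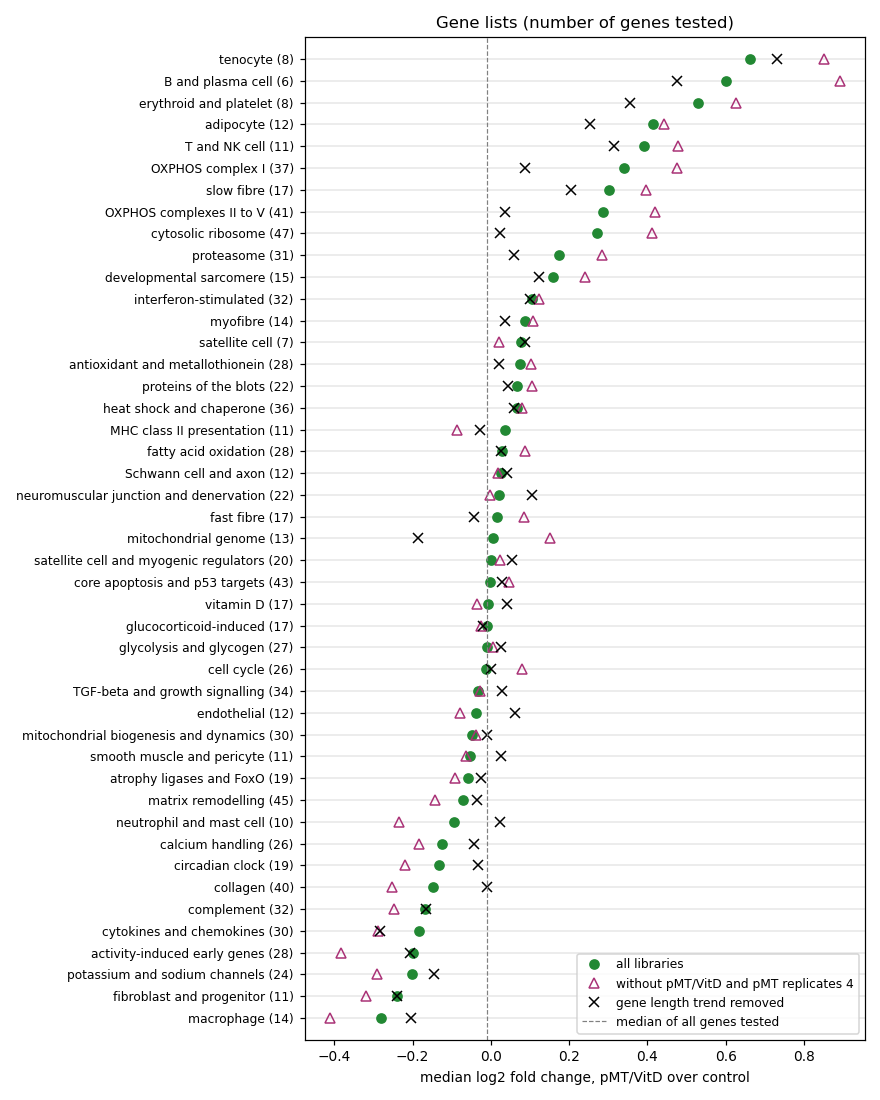
Median log2 fold change of pMT/VitD over control (x axis) for 45 gene lists, with the number of genes tested in brackets. Circles use all libraries, triangles leave out the replicates 4 of pMT/VitD and pMT, crosses have the trend on gene length removed, and the dashed line is the median of all genes. The complex I median is 0.339, 0.476 and 0.0872 under the 3 settings.

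Slow fibre genes had 15 of 17 values above control, again with replicates 1 and 2 highest. The median of these genes was 0.301, or 0.204 with the gene length trend removed and 0.396 without both replicates 4. Their list means were 0.67, 0.56, 0.05 and -0.04 relative to control, and 0.56 and 0.55 after surgery. Slow troponin Tnni1 had 558 and 556 CPM in control and 811, 804, 550 and 579 in pMT/VitD. Fast fibre genes had a median of 0.0158, and parvalbumin (Pvalb), the calcium buffer of fast fibres, had 5930 and 6110 CPM in control and 5880, 6150, 6880 and 5390 in pMT/VitD. Tendon and blood markers moved with the same libraries. The 8 tenocyte markers summed to 83.2 and 81.6 CPM in control, 273 and 269 after surgery, and 207, 171, 94.1 and 74.8 in pMT/VitD, while pMT replicate 4 had 241 CPM and pMT replicates 1 to 3 had 83.6 to 86.3. The tendon protein Thbs4 had 42.4 and 41.2 CPM in control and 98.1, 74.2, 45.6 and 38.4 in pMT/VitD, whereas the tendon factor Scx had 15.1 and 14.4 against 23.8, 22.6, 22.0 and 13.0. Erythroid and platelet markers summed to 1085 and 960 CPM in control and 1913, 2042, 862 and 1276 in pMT/VitD, most of it from the haemoglobin genes Hba1 and Hbb. The fat marker Fabp4 had 162 and 173 CPM in control and 356, 296, 213 and 152 in pMT/VitD. The part of tendon, blood or fat in the dissected piece in the values of replicates 1 and 2 was not tested.

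The transcripts of the proteins blotted in the study were all uncalled against control, and for 19 of the 22 the 95% interval stayed within 2-fold. The study's blots measured protein, in part phosphorylated, in control, surgery and pMT muscle, and no pMT/VitD muscle is described among them. Desmin (Des), the intermediate filament of the fibre, had 5270 and 5080 CPM in control, 3590 and 3570 after surgery, and 5120, 5720, 4990 and 5750 in pMT/VitD. Its log2 difference from control was 0.06 (-0.27 to 0.39), and it was higher than after surgery (0.59, adjusted p 0.0361). Ppargc1a, a coactivator of mitochondrial biogenesis, had 21.8 and 22.9 CPM in control and 24.7, 24.7, 19.4 and 22.6 in pMT/VitD (0.03, -0.22 to 0.28). The kinase gene Akt1 had 108 and 102 CPM in control and 122, 127, 112 and 117 in pMT/VitD, above control in every library (0.19, -0.05 to 0.43). Bax, which promotes apoptosis, had 8.06 and 7.30 CPM in control and 12.2, 12.1, 9.65 and 7.01 in pMT/VitD, and its counterpart Bcl2 was below 0.5 CPM in all 6 libraries. Foxo3, a factor that drives atrophy genes, had 7.01 and 6.87 CPM in control and 2.77, 3.04, 4.19 and 11.5 in pMT/VitD, the order of the early genes, and its interval was wide (-1.69 to 0.96).

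Vitamin D genes gave no call among the 17 tested (median -0.00672), and 10 of them had an interval within 2-fold. Vdr was at 0.584 and 0.550 CPM in control and 0.562, 0.371, 0.688 and 0.856 in pMT/VitD (0.13, -0.77 to 1.02). Cyp24a1, the enzyme that degrades active vitamin D and a direct target of its receptor, had 0 counts in the control, surgery and pMT/VitD libraries, where 3 counts would be the limit that a count of 0 allows. Cyp27a1, a hydroxylase of vitamin D and bile acids, had 29.3 and 28.8 CPM in control and 29.7, 25.3, 31.8 and 26.6 in pMT/VitD (-0.03, -0.29 to 0.22). Rxra, the receptor's partner, had 33.1 and 26.3 CPM in control and 13.5, 16.7, 15.7 and 42.8 in pMT/VitD, with replicate 4 apart. Spp1 (osteopontin), a target of the receptor that macrophages and tendon also make, was the exception in value. It had 0.473 and 0.667 CPM in control, 1.49 and 1.47 after surgery, and 4.88, 7.29, 0.989 and 0.837 in pMT/VitD, above control in all 4 libraries (log2 difference 2.62, 0.84 to 4.40, unadjusted p 0.00699), with the high values in replicates 1 and 2 where the tendon markers were high.

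**Figure D5:**
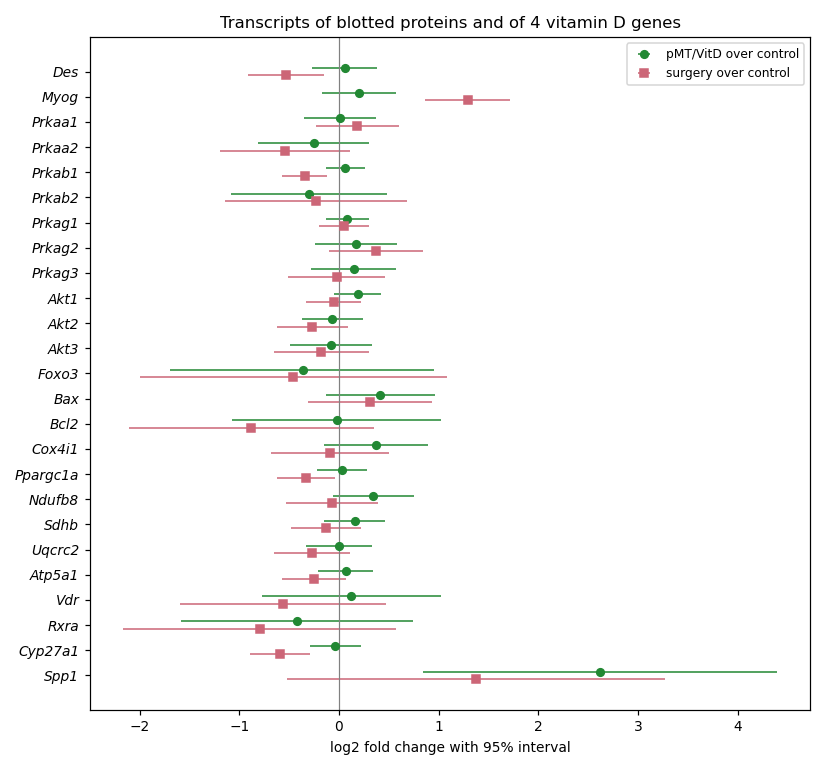
Log2 fold change with 95% interval (x axis) over control for transcripts of the blotted proteins and of 4 vitamin D genes (Vdr, Rxra, Cyp27a1 and Spp1), in pMT/VitD (circles) and after surgery (squares). Every pMT/VitD interval drawn except that of Spp1 (0.84 to 4.40) includes 0, and those of Prkab2, Foxo3, Bcl2, Vdr and Rxra reach past a 2-fold difference.

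The gene lists were chosen with earlier results of these data known. Of the 45 lists, 0 held a gene called between pMT/VitD and control. The atrophy ligases and FoxO genes had a median of -0.0583, and Trim63 (MuRF1), which marks myosin for degradation, had 287 and 313 CPM in control and 382, 353, 319 and 282 in pMT/VitD. Cytokine and chemokine genes had 22 of 30 values below control (median -0.183), and the median of the macrophage markers was -0.282. Without both replicates 4 these were -0.289 and -0.411, and with the length trend removed -0.284 and -0.204. Calcium handling and channel genes had medians of -0.125 and -0.201. Lists with the highest medians rested on few or scarce genes, namely tenocyte (8 genes, 0.663), B and plasma cell (6 genes, 0.601) and erythroid and platelet markers (8 genes, 0.528). In that order they were 0.732, 0.476 and 0.356 with the length trend removed, and 0.852, 0.891 and 0.625 without both replicates 4. With both replicates 4 left out, 2 lists held a called gene, and voom with quality weights placed a called gene in 39 of 45.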

How the data were processed

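RNA-seq libraries of rat multifidus were analysed from the gene table of the series. The authors aligned the reads to the rat genome and deposited read counts per gene without normalisation for 15 libraries. The authors also computed TPM values and FPKM values per gene, normalised for depth and transcript length, and deposited them beside the counts. The TPM values served only to derive relative gene lengths, and the 15 FPKM columns were not used. Per the submitters' processing notes, reads were trimmed with Trimmomatic 0.38, aligned to rn6 with HISAT2 2.1.0 and quantified with StringTie 2.1.3b, and SAMtools 1.9 and edgeR 3.40.2 are also listed. The study's methods give NCBI and RefSeq as the sources of genome and annotation. The strand setting is not given in the sources used here, so overlapping and antisense genes cannot be told apart.

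Of 37991 genes, 13263 had 0 counts in every library and 17201 passed filterByExpr. The main test was the quasi-likelihood F-test of edgeR 4.0.16 in R 4.3.3 over all 15 libraries with TMM factors and Benjamini-Hochberg adjustment over all genes tested, called at 0.05. Intervals are 95% intervals of the fitted log2 fold change. DESeq2 1.42.0, voom with quality weights in limma 3.58.1, edgeR's exactTest, other scalings and filters, removal of a loess trend on gene length (span 0.5), a replicate block and leaving out libraries were alternatives. The procedure was tested on simulated counts drawn from a common level per gene in each group. They held no library apart from its group and no gene length trend, so that the simulation does not cover these features. An exact permutation test of 4 against 2 libraries cannot go below a two-sided p of 0.133 and was not used.

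Named genes were to be those with the largest changes past the threshold. As 0 genes passed it, they were taken from the surgery response, from the ordered patterns and from the lists, after their values were seen. The members and lists were chosen with earlier results of these data known. No pair of libraries of a group agreed within sampling noise. Counting intervals and the floor of 3 counts cover counting error only. Same-numbered control and pMT/VitD libraries did not deviate together (correlations -0.105 and 0.162). Those of control and surgery correlated at 0.242. In groups of only 2 libraries the deviations mirror each other, so that both control and surgery pairs give this same value by construction. Results for 1 gene are not reported here.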

Additional observations from a re-analysis of the deposited data

Results flagged for a closer look

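In the 4 pMT/VitD libraries, 7 of 78 named genes, 1 of 45 gene lists and 1 of 3 library measures had 1 library whose gap to its nearest neighbour, as a share of the whole range, exceeded Dixon's 95% critical value for groups of 4. Chance gives this for about 1 in 20 such groups, but the count is no test here: several of the genes were named because they were called without replicate 4, or belong to the early gene list, so that it restates their choice. The library apart was replicate 4 in each of them. For Fosb the ratio was 0.959, with 3.44 CPM against 0.148 to 0.173 in the other 3. The ratio was 0.906 for Hspa1a, with 56.5 CPM against 10.5 to 12.3, and 0.900 for Egr1, with 24.8 CPM against 3.91 to 4.71. Adprhl1, an ADP-ribosylhydrolase-like protein of striated muscle, had 0.920, with 121 CPM against 53.2 to 56.8. Thbs1 had 0.891 and Atf3 0.863. The mean log2 CPM of the early gene list gave 0.936, at 4.26 against 3.14 to 3.22. In the other direction, Scx was lowest in replicate 4 (0.870), with 13.0 CPM against 22.0 to 23.8. The TMM factor gave 0.863, at 0.982 against 0.849 to 0.867. These ratios use log2 of CPM plus 0.05 and are not independent of each other, since they rest on the same library.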

How the results depend on the processing

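The count of genes called between pMT/VitD and control was 0 with RLE factors, library sizes alone, mitochondrial genes left out, DESeq2, a stricter filter, no filter, only the groups compared, the replicate block and the gene length trend removed. It was 1822 in voom with quality weights, 152 and 4 under the exactTest rule without and with adjustment, 11 without both replicates 4, and 0 to 2 with single libraries of the groups compared left out, as in the ranges that follow (1 without control replicate 2, 2 without pMT/VitD replicate 4). Between pMT/VitD and surgery it was 3250 on library sizes alone, 2249 in DESeq2, 6777 in voom, 836 with only the groups compared, 3462 without both replicates 4, 595 under the adjusted exactTest rule, 422 with a 2-fold minimum, and 122 to 2199 with single libraries left out. Between surgery and control it was 997 on library sizes alone, 1001 in DESeq2, 4902 in voom, 5289 with only the groups compared, 549 with the length trend removed, 716 without both replicates 4, 1169 and 1054 under the exactTest rule, 154 with a 2-fold minimum, 8 to 20 with a single control or surgery library left out, and 398 without pMT/VitD replicate 4. The 254 surgery genes called against surgery and not against control became 922, 825, 3070, 591, 502 and 601 on library sizes alone, in DESeq2, in voom, with only the groups compared, with the length trend removed and without both replicates 4, and 6 to 359 with single libraries left out. Genes past control numbered 701 in voom and 2 without both replicates 4, and 0 to 1 with single libraries left out. With surgery called on the other side they numbered 151 in voom. Genes displaced from control in both groups numbered 369 in voom, 2 without both replicates 4 and 0 to 1 with single libraries left out. Lists with a called gene numbered 39 in voom, 2 without both replicates 4 and 0 to 2 with single libraries left out. The cause of these differences was not tested.

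With the replicate block, 350 genes were called between pMT/VitD and surgery, 106 between surgery and control and 94 in both without a call against control. The pMT/VitD and control comparison stayed at 0, with 663 genes at an unadjusted p under 0.05. The labels share only a number, and the deviations of same-numbered control and pMT/VitD libraries correlated at -0.105 and 0.162. Those of control and surgery correlated at 0.242, a value that both pairs share by construction because each group has 2 libraries. With 2 control libraries, the median 95% interval of 0.463 to each side limits what a missing call can mean, and small differences were not detectable.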
